A study of Mus musculus with 6 samples.

Results

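Des, Mylk, Angpt1, Vwf, Flt4 and Itga6 are 6 genes with roles in the wall of blood vessels and in the vascular niche of the bone marrow. They were chosen by symbol from a deposited table of 1285 genes, with their values in both groups already known, so their differences are a description and not a test. The table compares mesenchymal stem and progenitor cells (MSPCs), stromal cells of the marrow that support blood stem cells, from 8-week-old Snai2-/- mice with those of control littermates. There were 3 Snai2-/- and 3 control libraries. Both groups carried Nes-GFP, a fluorescent reporter under nestin regulatory sequences, and about 2000 cells per library were sorted as GFP-positive and as negative for CD45, Ter119 and CD31, which mark leukocytes, erythroid cells and endothelium. Snai2-/- cells lack Snai2, which encodes Slug, a zinc-finger repressor of the Snail family. The labels give neither the design of the Snai2 allele nor the exact genotype of the controls, and they do not say whether each library came from its own animal. Each gene has 1 mean per group on the authors' normalized scale, with no value for a single library, so no SD and no depth can stand beside any mean.

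Small vessels of the marrow are lined by endothelial cells and wrapped by perivascular cells, which can contract and which secrete factors for the endothelium and for blood stem cells. Angiopoietin 1 is made by perivascular and stromal cells and acts on the receptor Tie2 of endothelial and blood stem cells. VEGF receptor 3 lies on lymphatic endothelium and on marrow sinusoids, and von Willebrand factor is stored in endothelial cells and in megakaryocytes.

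Promoter sequences were searched because Snail family proteins bind a form of the E-box, the motif CANNTG. That form reads CAGGTG, or CACCTG on the opposite strand. No promoter sequence of Angpt1, Vwf or Itga6 was available here, so theirs were not searched. The sequences of Des, Mylk and Flt4 are shown. They come from RefSeq on GRCm38.p6, plus strand, and capitals mark each CANNTG match. The Des bases span chr1:75360042-75360291, directly before the RefSeq start. The Mylk bases span chr16:34784700-34784920 and stop where an exon annotated by GENCODE begins. They precede a RefSeq start at 34784950, which lies inside the gene, since GENCODE has Mylk begin at 34745210. The 30 bases of Flt4 were cut around its match. They span chr11:49609429-49609458, inside its first exon as GENCODE annotates it.
Des: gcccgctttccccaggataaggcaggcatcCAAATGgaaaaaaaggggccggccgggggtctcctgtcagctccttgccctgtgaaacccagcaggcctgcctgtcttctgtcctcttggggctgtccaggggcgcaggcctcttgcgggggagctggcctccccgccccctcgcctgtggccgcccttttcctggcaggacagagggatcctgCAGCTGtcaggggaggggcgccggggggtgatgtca
Mylk: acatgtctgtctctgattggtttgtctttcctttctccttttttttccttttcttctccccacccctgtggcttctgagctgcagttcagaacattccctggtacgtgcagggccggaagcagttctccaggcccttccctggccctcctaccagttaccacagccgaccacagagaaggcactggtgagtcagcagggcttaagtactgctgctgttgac
Flt4: ggggacagtgcagtCACCTGcactcctcgc

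The window ran from 250 bases before to 50 bases after the RefSeq start. Of the 3 promoters, 1 held CAGGTG or CACCTG in it, that of Flt4, at position -236. All 300 bases of the Flt4 window lay in annotated exon, after the GENCODE start at 49609263. The bases before that start were not searched. Among all 32851 promoter windows of the same length, 20.2% held this form, and among those of listed genes 20.9%. The wider motif CANNTG, which includes it, was present in 2 of the 3 windows, in 72.3% of all windows and in 65.6% of those of listed genes. In Des it lay at -220 as CAAATG and at -36 as CAGCTG. The Mylk window, at a start inside the gene, held neither form, and the bases before the GENCODE start of Mylk were not searched. No CArG box, the site of serum response factor in many muscle promoters, was found in the 3 windows, and it was present in 1.63% of all windows and 1.31% of those of listed genes. GC boxes (GGGCGG or CCGCCC), which Sp family factors bind, were present in the windows of Des and Flt4, in 35.7% of all windows and in 60.6% of the 1225 windows of listed genes. These matches describe letters in a short window and say nothing about binding in these cells.

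Snai2 itself, the check of the genotype labels, had a mean of 9.20 in Snai2-/- cells and 636 in control cells per the authors' deposited table. Of the 6 genes, 5 had the lower mean in Snai2-/- cells and 1, Flt4, the higher mean. Over all listed genes, 50.9% had the lower mean in Snai2-/- cells and 49.1% the higher. The median log2 ratio (Snai2-/- over control) was -0.88 for the 6 genes and -0.36 over all listed genes. With directions so evenly split, the median over all listed genes falls among the smallest decreases and describes no general shift. At least a 2-fold difference separated the means of 4 of the 6 genes, against 45.9% of all listed genes. None of the 6 reached a false discovery rate (FDR, the p adjusted over all genes the authors tested) of 0.05. Their FDR ran from 0.328 to 0.648 per the authors' deposited table, where 0 genes reached 0.05, while all 1285 listed genes had an unadjusted p below 0.05.

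**Figure D1:**
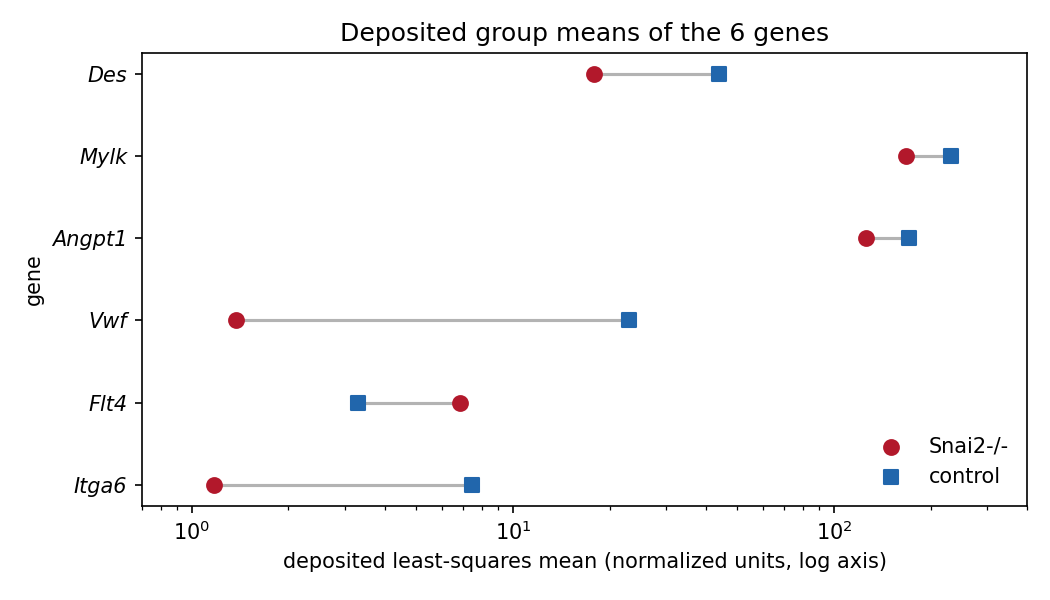
Deposited group means of the 6 genes, 1 gene per line, with the Snai2-/- mean as a circle and the control mean as a square, in the authors' normalized units on a log axis. The circle lies left of the square for 5 genes and right of it for Flt4, and the widest gap is that of Vwf, 1.38 in Snai2-/- cells against 23.0 in control cells.

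The contractile genes were Des and Mylk. Des encodes desmin, the intermediate filament of muscle cells and a common marker of pericytes (GRCm38 chr1:75360329-75368579, plus strand). Des had a mean of 17.8 in Snai2-/- cells and 43.9 in control cells per the authors' deposited table, which left 40.6% of the control mean. Its log2 ratio was -1.30 at an unadjusted p of 0.00197 per the authors' deposited table, the smallest p of the 6 genes and rank 100 among all listed genes. Mylk encodes myosin light chain kinase, which starts smooth muscle contraction by phosphorylating the regulatory light chain (chr16:34745210-35002420, plus strand). Mylk had a mean of 167.9 in Snai2-/- cells and 231.1 in control cells per the authors' deposited table, or 72.7% of the control mean. Its p there was 0.0447, rank 1170 of the listed genes per the authors' deposited table, and its log2 ratio was -0.46. Both contractile genes thus had the lower mean in Snai2-/- cells, and the proportional difference was larger for Des.

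Other contractile and perivascular genes were examined from a list of 23. Besides Des and Mylk, 0 of the 23 were listed, so 8.70% of the list stood in the table, against 7.69% of the 16718 genes that the authors tested. The 6 genes were chosen from the listed ones, so the share of every list that holds any of them is raised by that choice. The 21 not listed include the smooth muscle actin gene Acta2, the contractile genes Tagln, Myh11, Cnn1 and Myl9, and the pericyte genes Pdgfrb, Cspg4, Rgs5 and Notch3. A gene that is not listed either did not reach p below 0.05 or was not among those tested, and its level is not known here. Of 10 intermediate filament genes only Des was listed, 10% of that list. Nes, which gives the sort its name, and Vim were not.

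Mylk lies on the chromosome of Snai2, 20.0 Mb away. That chromosome held 42 listed genes, 3.37% of those with a known place. Its share of all genes tested is not known here. Of the 42, 24 had the lower mean in Snai2-/- cells, Snai2 and Mylk among them, and 18 the higher. Over all listed genes, 50.9% had the lower mean. Within 1 Mb of Mylk lay 2 listed genes, Sec22a and Kpna1, and both had the higher mean in Snai2-/- cells, with log2 ratios of 0.59 and 0.49 per the authors' deposited table. The direction of Mylk was therefore not that of its listed neighbours. Whether sequence that travels with the Snai2 allele plays a part in Mylk was not tested.

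Angpt1 is the ligand among the 6, encoding angiopoietin 1 (chr15:42424723-42676977, minus strand). Angpt1 had a mean of 126.1 in Snai2-/- cells and 171.3 in control cells per the authors' deposited table, or 73.6% of the control mean. Its log2 ratio of -0.44 was the smallest in size of the 6 genes, at an unadjusted p of 0.0148 and an FDR of 0.484 per the authors' deposited table. Of 7 genes of the angiopoietin and Tie system only Angpt1 was listed, 14.3% of that list against 7.69% of all genes tested. That share is no sign of an excess, because Angpt1 was chosen from the listed genes and 0 others of the list were listed. Its receptor gene Tek, the related receptor gene Tie1, the second ligand gene Angpt2 and Ptprb, the phosphatase that acts on Tie2, were not. Of the listed genes, 1179 had a larger log2 ratio in size than Angpt1, and the table gives no spread to set its difference against.

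On the opposite strand of Angpt1 lies Gm17473, an antisense gene that shares 737 exon bases with it. Gm17473 was singled out for that overlap after its values were seen. It had a mean of 1.58 in Snai2-/- cells and 4.50 in control cells per the authors' deposited table, the same direction as Angpt1. The library kits do not mark the strand, so reads from the shared bases cannot be assigned to either gene. Des and Mylk also share exon bases with antisense genes, 220 with Gm15179 for Des and 548 with E130310I04Rik and 224 with Gm21691 for Mylk, and these were not listed.

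Angpt1 also belongs to a list of 20 genes of marrow stromal identity, of which 2 were listed, 10% of that list against 7.69% of all genes tested. Both had the lower mean in Snai2-/- cells, as had 50.9% of all listed genes. The other was Ebf1, a transcription factor of marrow stroma, with a mean of 210.3 in Snai2-/- cells and 362.5 in control cells per the authors' deposited table. The stem cell factors Cxcl12 and Kitl, the receptor gene Lepr and the adhesion gene Vcam1 were not listed, so the labelled cell type could not be checked against their levels. In sorted bulk RNA, fewer cells of a type and less RNA per cell cannot be told apart.

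The vascular genes were Vwf and Flt4, and they went opposite ways. Vwf encodes von Willebrand factor, the plasma protein that tethers platelets to damaged vessel walls (chr6:125546774-125686679, plus strand). Vwf had a mean of 1.38 in Snai2-/- cells and 23.0 in control cells per the authors' deposited table, 16.7 times lower. Its log2 ratio of -4.06 was rank 49 by size among the listed genes, while its p of 0.0481 was rank 1238 per the authors' deposited table. Each of the 48 listed genes with a larger log2 ratio in size had a smaller p than Vwf, as had most of the 1285 listed genes. Among listed genes with at least its total over both groups, 1 other gene had as low a ratio, Snai2, a comparison chosen after the values were seen. Without single-library values, it is not known whether the control mean of Vwf rests on all 3 control libraries or on 1.

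**Figure D2:**
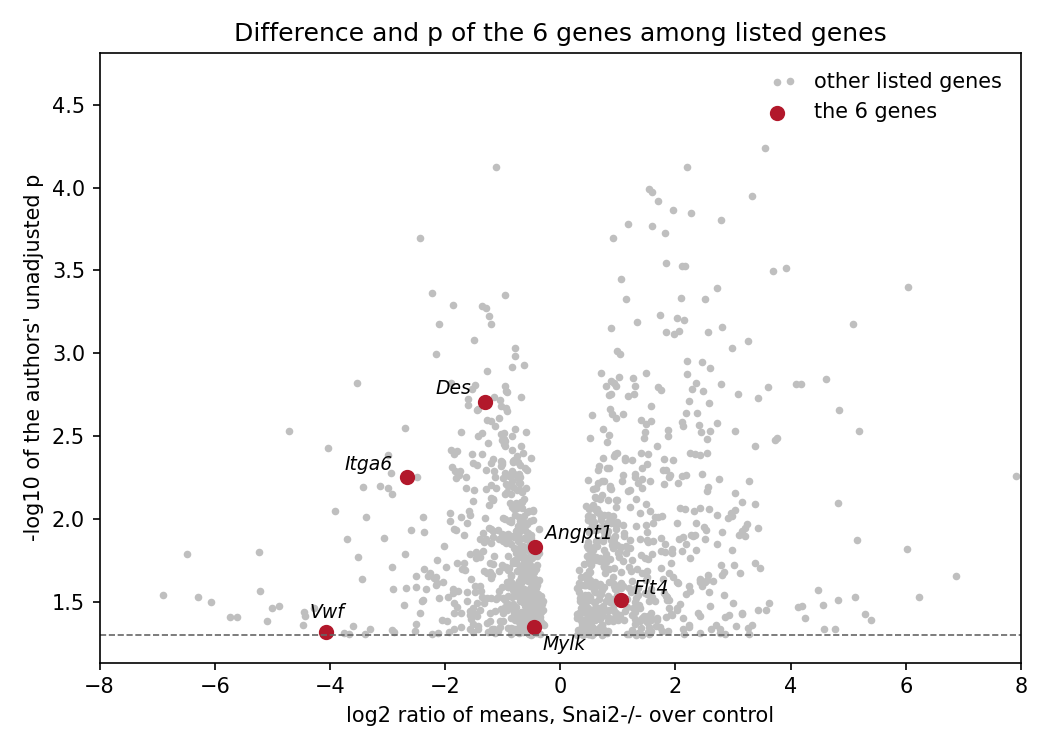
Log2 ratio of means (Snai2-/- over control, horizontal) against -log10 of the authors' unadjusted p (vertical) for the listed genes, with the 6 genes in red and the dashed line at p 0.05. Snai2 is left out, and 7 genes lie beyond the horizontal axis. Vwf, at p 0.0481, lies just above the line at a log2 ratio of -4.06, while Des stands highest of the 6.

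Flt4 encodes VEGF receptor 3, the receptor of the lymphatic growth factors VEGF-C and VEGF-D (chr11:49609263-49652739, plus strand). Flt4 had a mean of 6.85 in Snai2-/- cells and 3.28 in control cells per the authors' deposited table, and thus a ratio of 2.09. Its log2 ratio of 1.06 came with a p of 0.0308 and an FDR of 0.591 per the authors' deposited table. It was the only listed gene of 10 VEGF ligand and receptor genes, 10% of that list. Its ligand genes Vegfc and Vegfd and the receptor genes Flt1 and Kdr were not listed. Of 7 genes of lymphatic and sinusoidal endothelium 2 were listed, 28.6% of that list against 7.69% of all genes tested. They were Flt4 itself and Stab1, and they differed in direction. Stab1, a scavenger receptor of sinusoids, had a mean of 2.73 in Snai2-/- cells and 6.61 in control cells per the authors' deposited table.

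Markers of cells that the sort selects against were set beside Vwf and Flt4. Of 22 endothelial genes 2 were listed, these 2, or 9.09% of that list against 7.69% of all genes tested. Flt4 was higher and Vwf lower in Snai2-/- cells. The endothelial genes Pecam1 (which encodes CD31), Cdh5, Kdr, Emcn and Tek were not listed. Of 12 megakaryocyte and platelet genes only Vwf was listed, 8.33% of that list, and Pf4, Itga2b and Gp1ba were not. No summed level of either marker list can be given per group, because the levels of genes that are not listed are unknown. Of 12 leukocyte genes 4 were listed, 33.3% of that list against 7.69% of all genes tested. The leukocyte and erythroid lists hold none of the 6 genes, but they too were chosen with earlier results of these data known. Their shares are therefore a description and not a test. Each of the 4 had the higher mean in Snai2-/- cells, as had 49.1% of all listed genes, with log2 ratios of 3.38 for Ltf, 2.52 for Ngp, 1.58 for Cd48 and 1.56 for S100a9 per the authors' deposited table. Of 12 erythroid genes 1 was listed, Car1, or 8.33% of that list. Its mean was 137.1 in Snai2-/- cells and 45.7 in control cells per the authors' deposited table. The other 8 leukocyte genes, Ptprc, Lyz2, S100a8 and Spi1 among them, were not listed. The part of other cell types in Vwf and Flt4 was not tested.

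**Figure D3:**
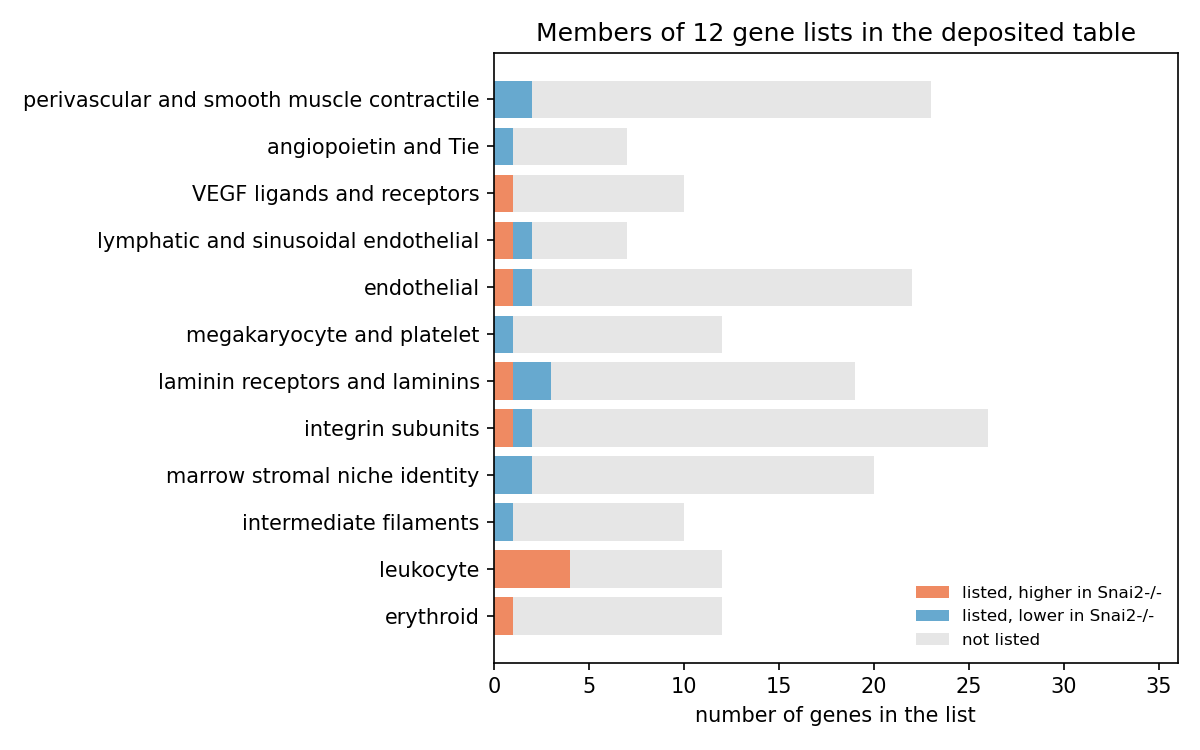
Members of the 12 gene lists, as the number listed with the higher mean in Snai2-/- cells, the number listed with the lower mean in Snai2-/- cells, and the number not listed. The 2 listed genes of the 23 on the contractile list are Des and Mylk, both lower, and the 4 listed leukocyte genes are all higher.

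Within 1 Mb of Vwf lay 4 listed genes, against a median of 2 around a listed gene. Cd9, which encodes a tetraspanin, and Ptpn6, which encodes a phosphatase of blood cells, had the higher mean in Snai2-/- cells, with log2 ratios of 0.64 and 1.52 per the authors' deposited table. Gm28809 and Plekhg6 had the lower mean, with log2 ratios of -1.39 and -1.28 per the authors' deposited table. Directions around Vwf were thus mixed, and its own difference exceeded each of these in size. Des and Flt4 had no listed gene within 1 Mb.

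Itga6 encodes integrin alpha 6, which pairs with beta 1 or beta 4 chains as a receptor for laminin in the basement membrane (chr2:71745616-71858416, plus strand). Itga6 had a mean of 1.17 in Snai2-/- cells and 7.44 in control cells per the authors' deposited table, 6.34 times lower. Its log2 ratio was -2.66 at a p of 0.00555 per the authors' deposited table, rank 238 by p and 139 by the size of the ratio. Genes inside the Itga6 span in the annotation share no exon bases with it. Within 1 Mb lay 1 listed gene, Rapgef4, with a log2 ratio of 1.21 per the authors' deposited table, opposite to Itga6.

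Of 26 integrin subunit genes 2 were listed, Itga6 and Itga10, a collagen receptor subunit of cartilage. That was 7.69% of the list, against 7.69% of all genes tested. Itga10 had a mean of 12.3 in Snai2-/- cells and 2.78 in control cells per the authors' deposited table, the opposite direction. The partner genes Itgb1 and Itgb4 and the other laminin-binding subunits Itga3 and Itga7 were not listed. Of 19 laminin and laminin receptor genes 3 were listed, 1 higher and 2 lower, or 15.8% of that list against 7.69% of all genes tested. That share includes Itga6, which was chosen from the listed genes, and 2 were listed beside it. Lama5, the alpha 5 laminin chain, had a mean of 39.6 in Snai2-/- cells and 8.94 in control cells per the authors' deposited table. That ratio was 4.43, and its FDR 0.271 per the authors' deposited table. Lamc1, the gamma 1 chain, had a mean of 97.9 in Snai2-/- cells and 130.1 in control cells per the authors' deposited table. Of the 2 listed laminin chains, Lama5 thus had the direction opposite to Itga6 and Lamc1 the same direction.

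The size of the ratios has to be read with the totals, since the table holds only genes with p below 0.05, and the ratios it lists were larger at low totals. When the listed genes were split by total over both groups into 4 bins of about equal size, the median log2 ratio in size was 1.95 in the lowest bin and 0.96, 0.68 and 0.60 in the next ones. Flt4 and Itga6 lay in the lowest bin, Flt4 below and Itga6 above its median. Vwf in the second bin and Des in the third exceeded the medians of theirs, while Mylk and Angpt1 in the highest bin did not.

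**Figure D4:**
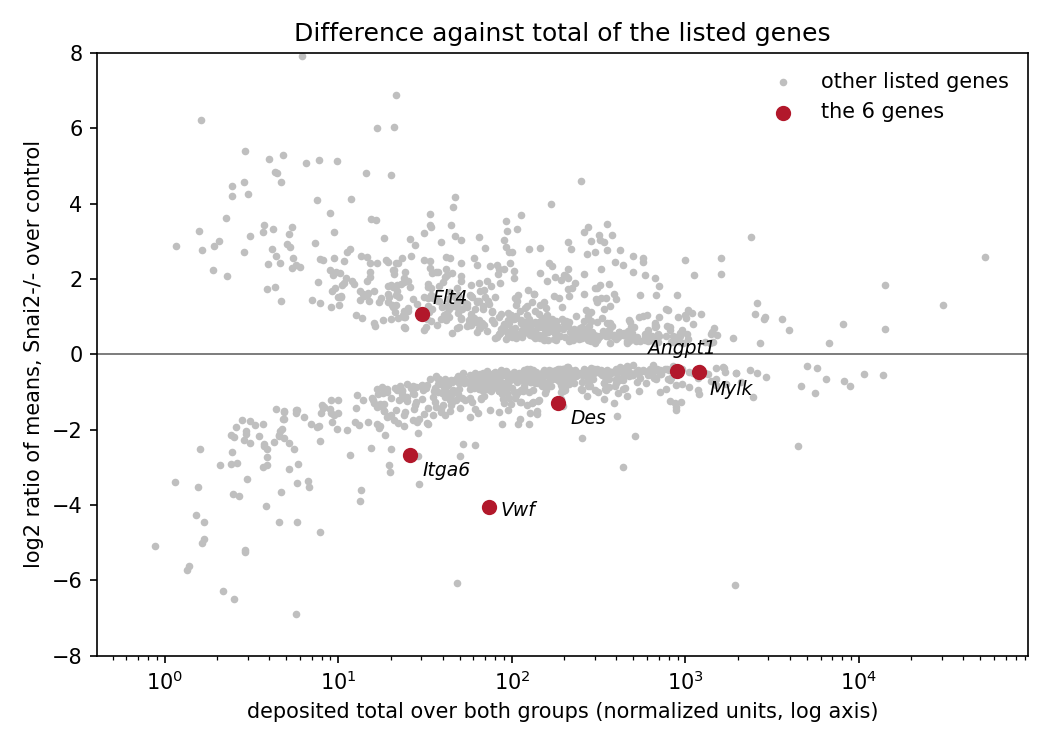
Log2 ratio of means (Snai2-/- over control, vertical) against the deposited total over both groups (horizontal, normalized units, log axis) for the listed genes, with the 6 genes in red. Of the listed genes, 7 lie beyond the vertical axis. The band of listed genes widens towards low totals, and Vwf lies below most listed genes at its total while Mylk and Angpt1 lie inside it.

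Genes most like each of the 6 were found among 1202 listed genes by the distance over both log2 means, so the likeness rests on 2 values per gene and takes no account of gene length. Des was nearest to Tfpi2 and Crym, at distances of 0.12 and 0.12. Mylk was nearest to P2rx4 and Smpdl3a, at 0.05 and 0.08, and Angpt1 to Plekhf1 and Plod3, at 0.03 and 0.11. Flt4 was nearest to Orm1 and Spc24, at 0.09 and 0.12. Itga6 was nearest to Lynx1 and Gria3, at 0.21 and 0.45. Vwf had no gene as close, with Rnaset2b at 0.96 and Rarb at 1.22. These distances also depend on how densely the table is filled at each level.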

How the data were processed

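RNA of 3 Snai2-/- and 3 control libraries was copied into cDNA with the SMART-Seq v4 low-input kit, and Nextera XT was used for the libraries, per the labels' protocols; neither kit marks the strand. Trim Galore, HTSeq, edgeR 3.12.0 and the build mm10 appear in the submitters' processing notes with no role. The sources used here do not give the aligner, the gene annotation or the model that gave the p-values. Per the file headers, the deposited table holds a p-value and a step-up FDR, a ratio of means, a signed fold change (a score that repeats the ratio), a total and a least-squares mean per group. The means and totals are a normalized signal of unstated unit, deposited by the authors, since 0 of 1285 totals were whole within 1e-06. The columns named Mutant were taken as Snai2-/-, those named Wildtype as control. Depth per library is unknown, so no interval is given.

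No model was fitted, because single-library values were not analysed here. Log2 ratios, ranks and list counts were computed from the deposited means with Python 3.11.15, numpy 2.4.6 and pandas 2.3.3, and figures with matplotlib 3.10.9. The 16718 tests were recovered from FDR, rank and p, and the rebuilt FDR differed by at most 0.0225%. This step and the motif search were tested on simulated data. The 6 genes, the 12 lists (159 symbols) and the alternatives were chosen with earlier results of these data known. Named were the 6 genes, Snai2, each listed member of a list and the 2 genes nearest to each of the 6, leaving out predicted models, Rik clones, pseudogenes and ribosomal genes. Neighbours and overlapping genes were named after their values were seen. Gene positions (1-based, GRCm38, which mm10 denotes) come from GENCODE M21, in which 1246 symbols matched 1 gene. Motifs were searched on both strands.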

Additional observations from a re-analysis of the deposited data

How the results depend on the processing

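The alternatives run were pseudocounts on the group means, limits on ratio, mean, p or FDR, and a promoter window cut to the bases before the start. None of them could change a direction, since each pseudocount was added to both means and the limits only drop genes. Of these 35 comparisons 23 kept the value within 1.5-fold, and 12 moved it further. A pseudocount of 1 gave log2 ratios of -3.34 for Vwf and -1.96 for Itga6, and one of 10 gave -1.54 for Vwf, -0.64 for Itga6 and 0.34 for Flt4, since these genes have low means. The 5 lower genes became 3 at an absolute log2 ratio of at least 1 (Des, Vwf and Itga6), 2 at p below 0.01 (Des and Itga6) and 3 at FDR up to 0.5 (Des, Itga6 and Angpt1). The 1 higher gene, Flt4, became 0 at a larger mean of at least 10, at p below 0.01 and at FDR up to 0.5. The rank of Vwf by size of ratio moved to 28 when genes with both means below 1 were left out. No paired analysis was possible because the values used here are 1 mean per group, and for the same reason a replicate block, left-out libraries, other normalizations and other filters were not run. Whether 1 library decides any of these means is unknown.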
